A study of Homo sapiens with 26 samples.

Results

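The genes described here encode the machinery that moves proteins between the endoplasmic reticulum (ER) and the Golgi apparatus: the COPII and COPI vesicle coats and the cargo receptors, golgins and SNAREs that work with them. The members are 52 gene symbols whose selection rule uses no measured value, although the list was drawn up with earlier results of these data known. All 52 were found in each of the 3 deposited tables, among 11823, 11679 and 12140 genes for the tables of SART1, of DDX39A and SARNP, and of FIBP and TMEM259. All 52 passed the filter on low values. The list held 10 genes of the COPII coat, 4 grouped under ER exit sites, 8 of the COPI coat, 5 for ARF proteins and their exchange factor, 7 of the TMED (p24) family, 4 for cargo receptors, 3 for KDEL receptors, 6 for golgins and Golgi tethers and 5 for SNAREs.

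COPII coats form at ER exit sites when the exchange factor PREB loads the GTPase SAR1 with GTP; SAR1 recruits the SEC23 and SEC24 inner coat, in which SEC24 binds cargo, and the outer coat with SEC31 follows. COPI coats are a single complex, coatomer, recruited by ARF GTPases that GBF1 activates, and they return ER residents and recycling receptors from the Golgi. Golgins and other tethers catch arriving vesicles, and SNAREs fuse them with the next membrane.

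RNA was measured in the 786-O line, grown from a clear cell carcinoma of the human kidney and without functional VHL, which is the background of every group. Cells given a non-targeting siRNA were the controls, with 2 libraries in each of the 3 tables, and 10 groups of 2 libraries each received 1 siRNA: siRNAs 4 and 6 against SART1, a spliceosome protein; 1 and 4 against DDX39A, an RNA helicase of mRNA export; 3 and 9 against SARNP, which binds RNA and the export machinery; 6 and 7 against FIBP, which binds the growth factor FGF1; and 5 and 6 against TMEM259, an ER membrane protein of protein degradation. The labels treat the targets as speckle protein genes, nuclear speckles being bodies rich in splicing and export factors. Cells were split 24 h and harvested 48 h after transfection, so each value is from 1 line at 1 time after transient knockdown.

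Values are the deposited normalized read counts of each library. Changes are log2 differences from the controls of the same table on the log2(value + 1) scale, given ± the standard error (SE) of the model. The calls are limma's, at p-values below 0.05 after Benjamini-Hochberg adjustment over all tested genes of the table. The text writes that a gene rose or fell with a target when both siRNAs called it in that direction. Both siRNAs of a target were set against the same 2 control libraries, as were both targets of a shared table, so their agreement is not independent evidence. Nothing in the labels says that a group's libraries were transfected separately, and the p-values then measure only the spread between these libraries, which may be technical. In whole cultures, fewer cells with an RNA and less of it per cell cannot be told apart.

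Gene reads per library ranged from 8966609 to 26128173, and a transport gene had between 171 and 18569 reads in a library. These genes together took between 0.958% and 1.282% of gene reads. Each target was lower with its own siRNAs: SART1 stood at 33.3% and 26.8% of control, DDX39A at 14.0% and 16.5%, SARNP at 13.5% and 8.48%, FIBP at 11.0% and 17.1% and TMEM259 at 30.3% and 48.3%. The renal tubule marker PAX8 was between 1540 and 3040 normalized reads in every library, and no blood or endothelial marker of the lists used was listed.

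With SART1 knockdown, 36 of the 52 genes rose and 1, COPG2, fell, against 22.9% of all tested genes that rose and 20.0% that fell. With DDX39A, 7 rose and 2 fell, where 8.67% and 6.37% of all genes did. With SARNP, 11 rose and 3 fell, where 7.17% and 7.15% of all genes did. With FIBP, 17 rose and 4 fell, beside 4.68% and 4.39%. With TMEM259, 14 rose, beside 2.56% of all genes, and 0 fell by limma, where 2.41% of all genes did; at an unadjusted p below 0.05 the latter count was also 0, as it was with edgeR and with DESeq2. As shares of the 52, those that rose were 69.2% with SART1, 32.7% with FIBP, 26.9% with TMEM259, 21.2% with SARNP and 13.5% with DDX39A. The DDX39A share lies nearest to its share over all genes. Here and below, shares over all genes cover every gene with a mean of at least 10. The lowest mean of a transport gene was 242, that of COPG2 in the table of DDX39A and SARNP. Shares among genes of a similar level were not computed.

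The medians of the 52 changes were 0.41 and 0.29 with the SART1 siRNAs 4 and 6, 0.09 and 0.16 with the FIBP siRNAs 6 and 7, and 0.10 and 0.10 with the TMEM259 siRNAs 5 and 6. They were -0.01 and 0.17 with the DDX39A siRNAs 1 and 4, and 0.20 and -0.05 with the SARNP siRNAs 3 and 9. The median of all genes lay between -0.01 and 0.00 for each siRNA. Single libraries mattered to the smaller counts. Without control replicate 1 of their table, 8 genes rose with FIBP and 6 with TMEM259. Without replicate 2 of TMEM259 siRNA 5, 9 rose with TMEM259; without replicate 1 of DDX39A siRNA 1, 4 rose with DDX39A; and without replicate 2 of FIBP siRNA 7, 2 fell with FIBP.

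**Figure D1:**
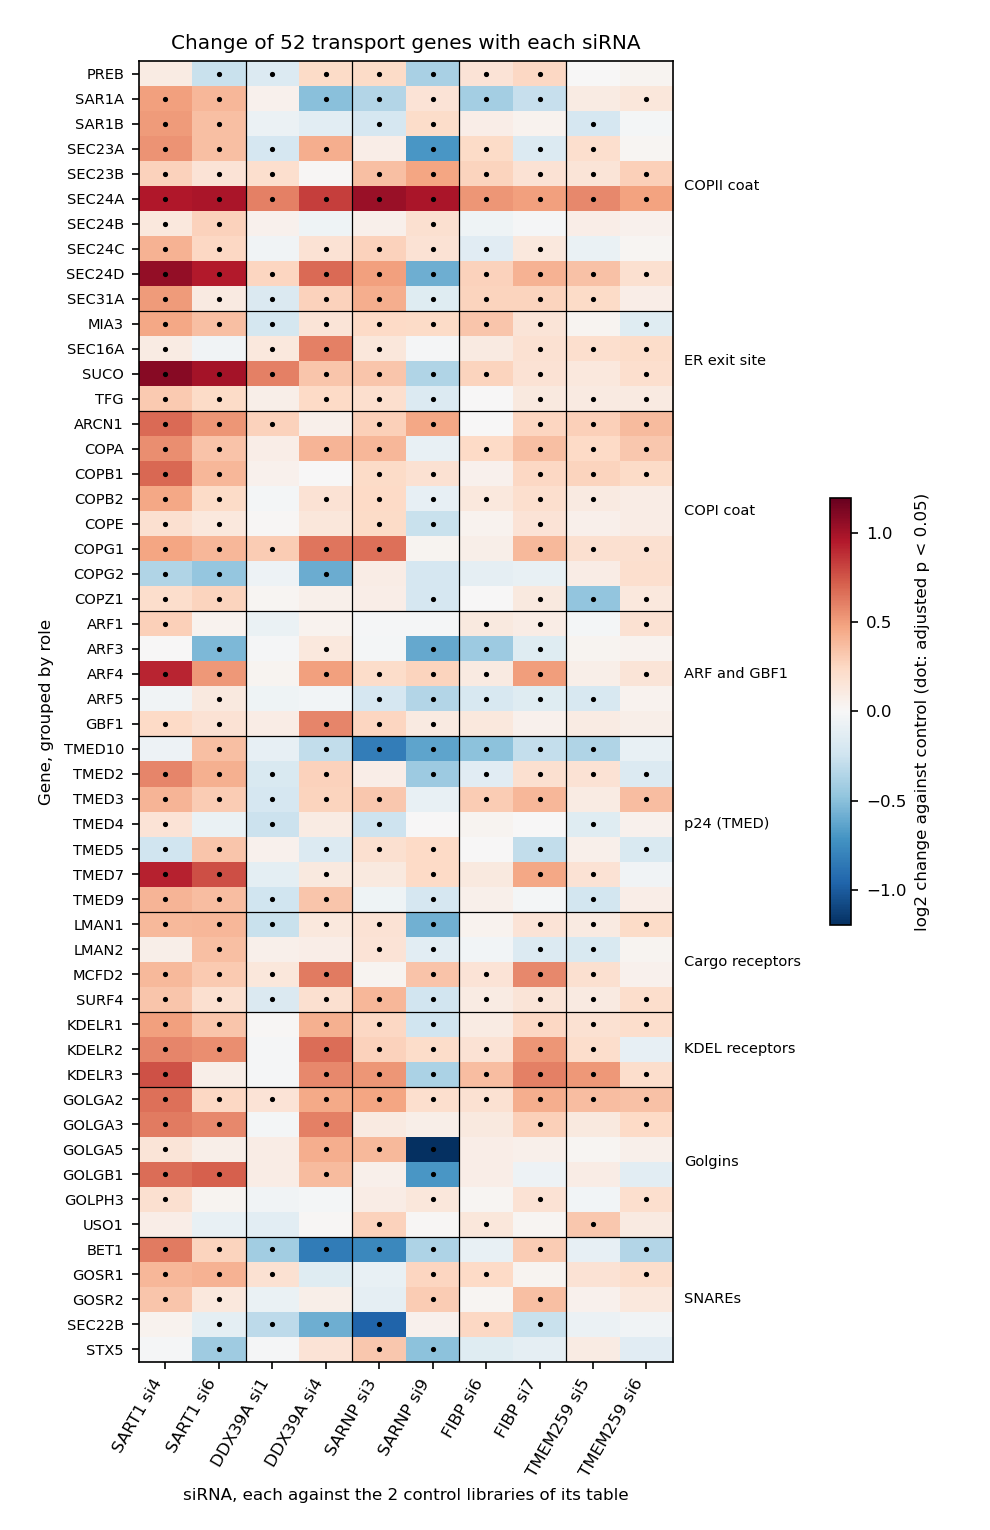
Log2 change of each of the 52 transport genes (rows, grouped by role) with each of the 10 siRNAs (columns) against the 2 control libraries of its table; red is higher, blue lower, and a dot marks an adjusted p below 0.05. The SART1 columns are mostly red, with 36 genes called higher by both siRNAs, as were 22.9% of all tested genes. SEC24A is red in all columns, and the SARNP columns often differ in colour between the siRNAs.

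GOLGA2 and SEC24A rose with all 5 targets, and SEC23B and SEC24D with 4. A further 10 genes rose with 3 targets: ARCN1, ARF4, COPA, COPB1, COPG1, KDELR2, MCFD2, MIA3, SUCO and SURF4. TMED10, ARF5 and BET1 fell with 2 targets each, and ARF3, COPG2, SAR1A and SEC22B with 1. BET1 and SAR1A rose with one target and fell with another. GOLGA5, GOLPH3, LMAN2, STX5, TMED4 and USO1 were called in a common direction by the siRNAs of no target, a count of 6. The same counts across targets were not made over all tested genes, so these numbers have no share to be set against.

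In the COPII coat, 9 of 10 genes rose with SART1, where 22.9% of all tested genes did. With FIBP 5 rose (4.68% of all genes), with SARNP 3 (7.17%), with TMEM259 3 (2.56%) and with DDX39A 2 (8.67%). SEC24A, one of the 4 cargo-binding SEC24 proteins, rose with each target. In the SART1 table its control libraries held 1721 and 1702 normalized reads, those with siRNA 4 held 3127 and 3573, and those with siRNA 6 held 3308 and 3467. In the table of DDX39A and SARNP the controls were at 852.9 and 897.1, DDX39A siRNA 1 at 1294 and 1359, DDX39A siRNA 4 at 1557 and 1561, SARNP siRNA 3 at 1816 and 1795, and SARNP siRNA 9 at 1733 and 1727. In the table of FIBP and TMEM259 the controls were at 1014 and 1147, FIBP siRNA 6 at 1548 and 1561, FIBP siRNA 7 at 1578 and 1464, TMEM259 siRNA 5 at 1674 and 1550, and TMEM259 siRNA 6 at 1502 and 1515. Every knockdown library of each table lay above both controls, with no overlap.

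The changes of SEC24A were 0.96 ± 0.05 and 0.98 ± 0.05 with SART1 (adjusted p = 1.1e-13 and 7.5e-14), and 1.04 ± 0.05 and 0.98 ± 0.05 with SARNP (4.1e-19 and 8.0e-19). They were 0.60 ± 0.05 and 0.83 ± 0.05 with DDX39A, 0.53 ± 0.06 and 0.49 ± 0.06 with FIBP, and 0.58 ± 0.06 and 0.48 ± 0.06 with TMEM259. All 10 of these calls held under each alternative that was run, left-out libraries included. DDX39A siRNA 4 exceeded siRNA 1 by 0.23 ± 0.05 (adjusted p = 2.4e-04), and for the other targets the adjusted p of the difference between siRNAs ran from 0.195 to 0.798.

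The sequences upstream of the start of SEC24A and SUCO, the genes with the largest common rise with SART1 for which the RefSeq promoter table had an entry, are shown because they differ in the short elements looked for. They are the 250 bases before the RefSeq start on GRCh38.p14, read 5′ to 3′ on the strand of the gene, SEC24A at chr5:134648535-134648784 (plus strand) and SUCO at chr1:172532099-172532348 (plus strand); the read counts themselves were made on hg19, and no coordinate of that build is given. Capitals mark matches to TGACGTGG or CCACG on either strand.
SEC24A: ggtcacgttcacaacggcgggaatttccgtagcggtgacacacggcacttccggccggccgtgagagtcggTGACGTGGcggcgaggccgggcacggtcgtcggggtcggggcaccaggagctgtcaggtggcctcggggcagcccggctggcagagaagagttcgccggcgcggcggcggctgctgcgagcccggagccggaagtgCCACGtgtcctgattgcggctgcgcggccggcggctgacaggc
SUCO: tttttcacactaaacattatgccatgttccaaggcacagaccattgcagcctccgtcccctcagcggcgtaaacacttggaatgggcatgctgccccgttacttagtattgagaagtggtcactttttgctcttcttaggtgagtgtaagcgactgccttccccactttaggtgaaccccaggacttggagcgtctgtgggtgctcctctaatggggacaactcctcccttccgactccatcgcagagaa
SEC24A held TGACGTGG from 179 to 172 bases before its start, with CCACG as the complement of its last bases, and a second CCACG from 43 to 39 bases before the start. SUCO held 0 matches to the elements searched, as did GOLGB1, and TMED7 held 4 of CCACG.

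The element TGACGTGG, an 8-base form of the site that ATF6 and XBP1 are known to bind, was in the upstream windows of 7 of the 46 transport genes that matched the RefSeq table (15.2%), against 182 of all 27305 promoters (0.667%) and 74 of 9145 promoters of tested genes (0.809%). The stretches that hold it are shown with the element in capitals, as TGACGTGG or as its complement CCACGTCA.
SEC24A: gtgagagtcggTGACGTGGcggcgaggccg
COPB1: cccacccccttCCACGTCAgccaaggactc
COPB2: gctcagcggcaCCACGTCAcggcccttagt
ARF1: cccggaggcgcTGACGTGGccgccgtc
KDELR3: ggccgccctggCCACGTCAccgcccggcca
GOLGA5: ccggcggcgagCCACGTCAcacgcacgcag
STX5: ttacgtgtaggTGACGTGGccgcttcc
SEC24A, COPB1 and COPB2 of these rose with SART1, whereas ARF1, KDELR3 and GOLGA5 were called higher by siRNA 4 alone and STX5 lower by siRNA 6 alone. The shorter CCACG, which TGACGTGG contains on its other strand, was in 27 of the 46 windows (58.7%), against 33.3% of all promoters and 45.3% of those of tested genes. TGACGTCA, the cyclic AMP element, was in 1 window, that of GOLPH3 (2.17%), against 1.77% and 2.93%. CCAAT followed after 9 bases by CCACG, the full ER stress element, was in 0 of the 46 windows, against 0.0806% and 0.153%. All motifs were searched on both strands, and a match is a description of letters, not of binding.

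Among the other SEC24 paralogs, SEC24D rose by a similar amount with SART1 and was split with SARNP. Its SART1 controls stood at 2742 and 2570, siRNA 4 at 5236 and 5733, and siRNA 6 at 5117 and 5121, changes of 1.05 ± 0.04 and 0.95 ± 0.04 (adjusted p = 2.3e-15 and 1.0e-14). With SARNP, controls were at 1604 and 1616, siRNA 3 at 2274 and 2264, and siRNA 9 at 1077 and 1061. The siRNAs therefore lay on opposite sides of the controls, by 0.49 ± 0.05 and -0.59 ± 0.05. SEC24D also rose with DDX39A (0.26 and 0.68, each ± 0.05), FIBP (0.28 and 0.42, each ± 0.05) and TMEM259 (0.35 and 0.19, each ± 0.05).

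SEC24C rose with SART1 (0.42 ± 0.03 and 0.25 ± 0.03) and SARNP (0.28 ± 0.04 and 0.17 ± 0.04), and the FIBP siRNAs called it in opposite directions at -0.14 ± 0.04 and 0.13 ± 0.04. SEC24B rose with SART1 alone among the targets, by 0.13 ± 0.05 and 0.28 ± 0.05; whether that differs from its changes in other tables was not tested. The SEC23 paralogs, the GTPase activators of SAR1, also differed from each other. SEC23B rose with SART1 (0.28 and 0.16, each ± 0.04), SARNP (0.36 and 0.47, each ± 0.06), FIBP (0.27 and 0.17, each ± 0.06) and TMEM259 (0.15 and 0.29, each ± 0.06). SEC23A rose with SART1 (0.54 ± 0.04 and 0.36 ± 0.04), and was called in opposite directions by the siRNAs of DDX39A (-0.20 and 0.44) and of FIBP (0.23 and -0.16). Its lowest value was with SARNP siRNA 9, at 1269 and 1378 against controls of 2120 and 2192, a change of -0.70 ± 0.05, while SARNP siRNA 3 gave 0.08 ± 0.05. The FIBP call of SEC24C was lost for siRNA 6 without either control or its own replicate 1 (-0.06 to -0.15), and for siRNA 7 without either control or either library of its own (0.12 to 0.14). With DESeq2 neither FIBP siRNA called SEC24C (adjusted p = 0.0629 and 0.0539), and with quantile normalization siRNA 7 did not (adjusted p = 0.0544). The SEC23A call was lost for DDX39A siRNA 1 without its replicate 1 (-0.14) and for FIBP siRNA 7 without control replicate 2 (-0.12) or its replicate 2 (-0.09).

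**Figure D2:**
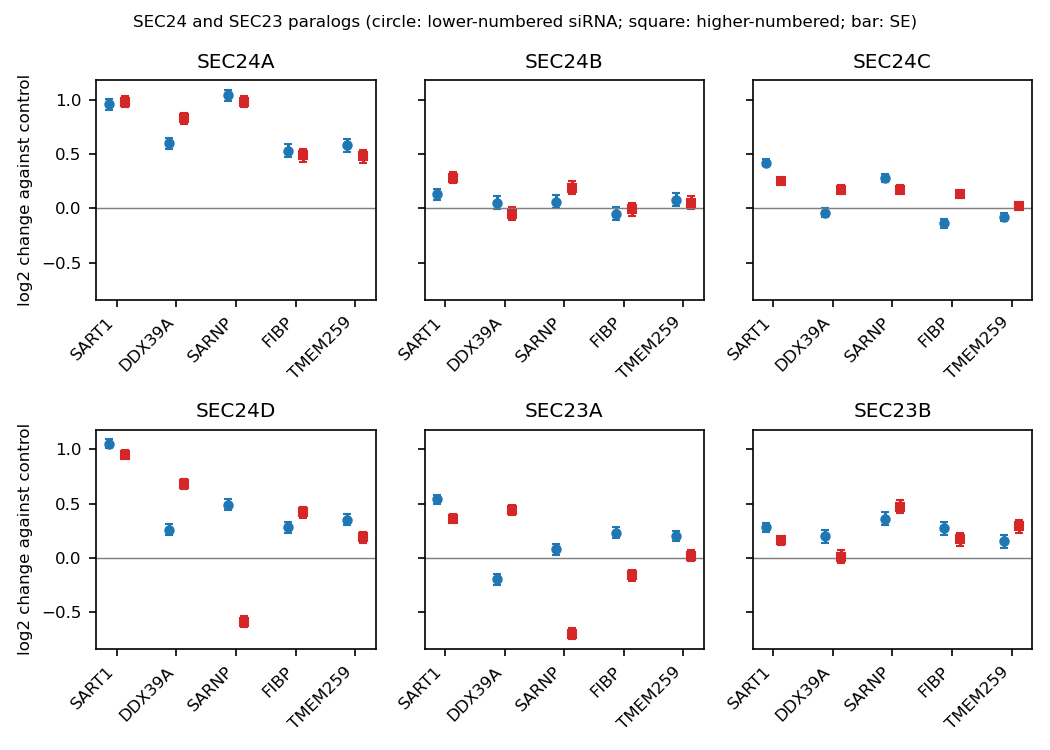
Log2 change against control (vertical axis; bars are the SE) of the 4 SEC24 and 2 SEC23 paralogs with the siRNAs of each target, the lower-numbered siRNA as a circle and the higher-numbered one as a square. SEC24A lies between 0.48 and 1.04 with all 10 siRNAs, whereas SEC24D and SEC23A are below 0 with SARNP siRNA 9, at -0.59 and -0.70.

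SAR1A, one of the paralogous GTPases that start the coat, rose with SART1 and fell with FIBP. Its SART1 controls were at 3929 and 3961, siRNA 4 at 5248 and 5849, and siRNA 6 at 5183 and 5246 (0.49 ± 0.04 and 0.40 ± 0.04). With FIBP, controls were at 2191 and 2142, siRNA 6 at 1644 and 1606, and siRNA 7 at 1824 and 1734, which gave -0.41 ± 0.05 and -0.28 ± 0.05 (adjusted p = 1.5e-09 and 3.3e-06). In both tables the knockdown libraries lay wholly on one side of the controls. SAR1A was called lower by DDX39A siRNA 4 (-0.50 ± 0.04) but not by siRNA 1 (0.05 ± 0.04), and SARNP siRNA 3 (-0.35) and siRNA 9 (0.16) disagreed. SAR1B rose with SART1 (0.51 ± 0.05 and 0.36 ± 0.05), and SARNP siRNAs 3 and 9 called it at -0.20 and 0.22; these calls were lost for siRNA 3 without control replicate 2 (-0.18) or its replicate 2 (-0.13) or with DESeq2 (adjusted p = 0.0501), and for siRNA 9 without its replicate 2 (0.13).

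SEC31A, of the outer coat, rose with SART1 (0.51 ± 0.03 and 0.11 ± 0.03) and FIBP (0.27 ± 0.04 and 0.27 ± 0.04). It was called in opposite directions by the siRNAs of DDX39A (-0.17 and 0.28) and SARNP (0.44 and -0.15). PREB, the exchange factor, was the COPII gene that did not rise with SART1, at 0.10 ± 0.05 and -0.27 ± 0.05; it rose with FIBP (0.16 and 0.25, each ± 0.05). Its DDX39A changes were -0.16 and 0.23, and its SARNP changes 0.23 and -0.39, each pair called in opposite directions. Without control replicate 1 (-0.13) or 2 (-0.18), or without replicate 2 of DDX39A siRNA 1 (-0.08), or with DESeq2 (adjusted p = 0.14), that siRNA no longer called PREB.

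Of the 4 genes grouped here under ER exit sites, 3 rose with SART1, where 22.9% of all tested genes did. SUCO, placed in this group by the list alone, had the largest rise of all 52 genes with both SART1 siRNAs. SUCO, whose product is an ER membrane protein needed for collagen output in bone, stood at 1375 and 1339 in the controls, at 2815 and 2983 with siRNA 4 and at 2705 and 2714 with siRNA 6. These are changes of 1.09 ± 0.04 and 1.00 ± 0.04 (adjusted p = 1.5e-15 and 6.3e-15). SUCO rose too with DDX39A (0.60 ± 0.06 and 0.33 ± 0.06) and FIBP (0.27 ± 0.06 and 0.17 ± 0.06), and split with SARNP at 0.33 and -0.36. MIA3 (TANGO1), which loads procollagen into COPII carriers, rose with SART1 (0.46 and 0.36, each ± 0.05), SARNP (0.24 and 0.23, each ± 0.06) and FIBP (0.33 and 0.15, each ± 0.05), and DDX39A siRNAs 1 and 4 called it at -0.21 and 0.15. TFG, an organizer of exit sites, rose with SART1 (0.31 and 0.23, each ± 0.04) and TMEM259 (0.11 and 0.11, each ± 0.04), and SARNP gave 0.20 and -0.16. SEC16A, the scaffold of exit sites, rose with DDX39A (0.13 ± 0.04 and 0.60 ± 0.04) and TMEM259 (0.20 ± 0.05 and 0.22 ± 0.05); with SART1 it was at 0.10 ± 0.04 and -0.04 ± 0.04. The SEC16A call of DDX39A siRNA 1 was lost without control replicate 2 (0.11) or either library of its own (0.13), and that of TMEM259 siRNA 5 without its replicate 2 (0.13). The MIA3 call of DDX39A siRNA 4 was lost without either control (0.14 and 0.15) or its replicate 1 (0.09), and with DESeq2 (adjusted p = 0.0906).

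**Figure D3:**
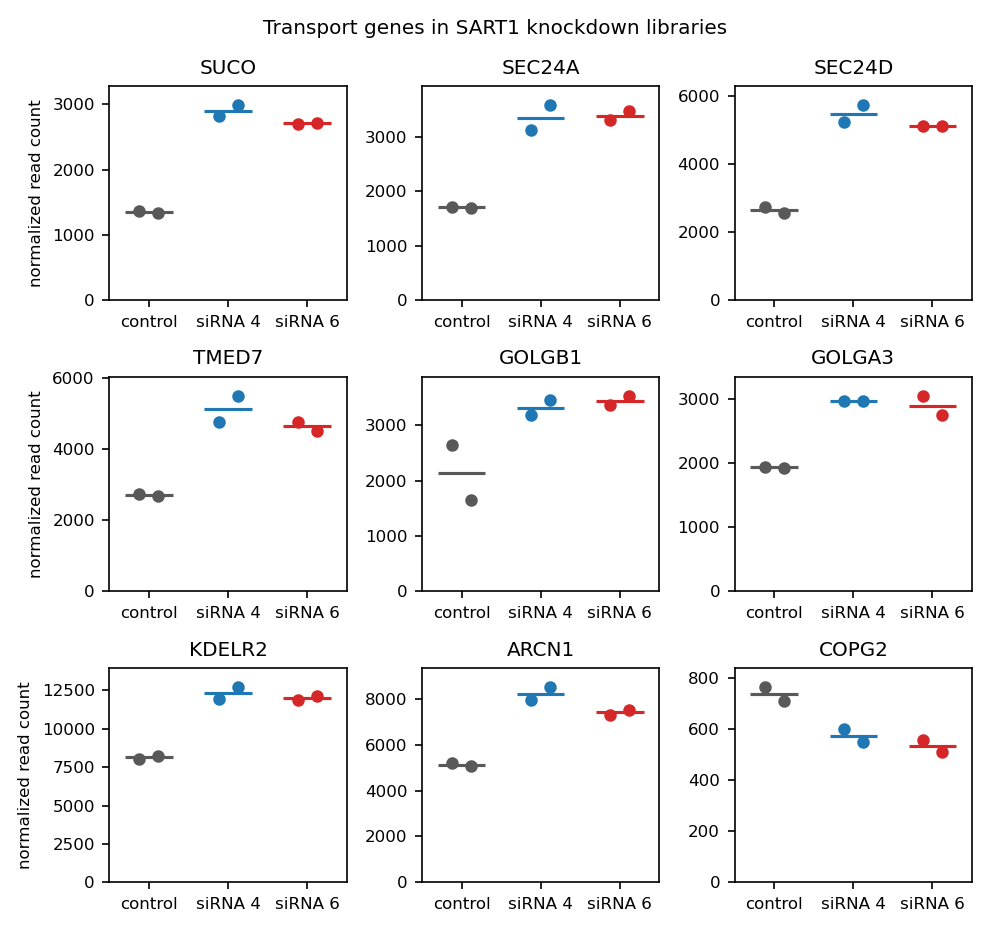
Normalized read counts of 9 transport genes in the 2 control libraries and the 2 libraries of each SART1 siRNA (points; lines are group means). SEC24A, SUCO, SEC24D and TMED7 lie well above the controls in all 4 knockdown libraries, COPG2 lies below, and the GOLGB1 controls are far apart, at 2649 and 1649.

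Of the 8 coatomer genes, 7 rose with SART1 and the remaining one, COPG2, fell, where 22.9% and 20.0% of all tested genes did. ARCN1, the delta subunit, stood at 5212 and 5047 in the SART1 controls, at 7923 and 8485 with siRNA 4 and at 7281 and 7521 with siRNA 6, which gave 0.68 ± 0.04 and 0.53 ± 0.04 (adjusted p = 3.2e-13 and 2.2e-11). COPB1 (0.69 and 0.40, each ± 0.04), COPA (0.56 and 0.34, each ± 0.03), COPG1 (0.47 and 0.40, each ± 0.03) and COPB2 (0.46 and 0.23, each ± 0.03), subunits of the same complex, rose as well. COPZ1 (0.21 and 0.27) and COPE (0.19 and 0.13), each ± 0.04, rose too.

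The gamma subunit has 2 paralogs, which moved in opposite directions with SART1. COPG2 was at 764.1 and 711.7 in the SART1 controls, at 600.7 and 549.8 with siRNA 4 and at 559.7 and 511.2 with siRNA 6, below both controls in every knockdown library (-0.36 ± 0.07 and -0.46 ± 0.07, adjusted p = 0.00012 and 4.3e-06). COPG1 rose by 0.47 and 0.40 in these libraries. With DDX39A siRNA 4, COPG1 was at 0.64 ± 0.04 and COPG2 at -0.60 ± 0.11, and with siRNA 1 they were at 0.30 ± 0.04 and -0.06 ± 0.11. COPG2 had the fewest reads of the 52 genes, and its SE was the largest among them in the tables of DDX39A and SARNP and of FIBP and TMEM259.

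Several coatomer genes rose with further targets. COPG1 rose with DDX39A as above and with TMEM259 (0.19 and 0.19, each ± 0.04), and SARNP siRNA 3 alone called it higher, at 4565 and 4443 against controls of 2873 and 2813 (0.66 ± 0.04). COPA rose with FIBP (0.24 and 0.36, each ± 0.04) and TMEM259 (0.24 and 0.32, each ± 0.04). ARCN1 rose with SARNP (0.29 and 0.46, each ± 0.04) and TMEM259 (0.29 and 0.38, each ± 0.04), and COPB1 with the same targets (0.23 and 0.18, then 0.27 and 0.23, each ± 0.04). COPB2 rose with FIBP (0.13 and 0.20, each ± 0.04); its SARNP changes were 0.24 and -0.10, and those of COPE 0.23 and -0.27. The COPG1 calls with TMEM259 were lost without control replicate 1 (0.13 and 0.13), and the call of COPB2 by SARNP siRNA 9 was lost with DESeq2 (-0.09, adjusted p = 0.0736), with quantile normalization (-0.06), without control replicate 2 (-0.05) and without any 1 SARNP library (-0.09 to -0.10). COPZ1, the zeta subunit, stood out with TMEM259: controls were at 3343 and 3372, siRNA 6 at 3600 and 3735, and siRNA 5 at 2376 and 2477. These are opposite calls of -0.47 ± 0.04 with siRNA 5 (adjusted p = 2.7e-12) and 0.13 ± 0.04 with siRNA 6, and COPZ1 was above both controls in the libraries of the latter and below them in those of the former. The siRNA 6 call of COPZ1 was lost without either control (0.12 and 0.13) or its replicate 2 (0.10).

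The ARF GTPases recruit coatomer and other coats, and ARF4 was the one that rose most often. It stood at 7418 and 7426 in the SART1 controls, 13070 and 14950 with siRNA 4, and 10390 and 10900 with siRNA 6 (0.91 ± 0.04 and 0.52 ± 0.04, adjusted p = 3.0e-14 and 3.5e-10). It also rose with SARNP (0.22 and 0.27, each ± 0.05) and FIBP (0.11 and 0.50, each ± 0.04). ARF1 rose with FIBP alone (0.12 and 0.09, each ± 0.03), and SART1 siRNA 4 gave 0.29 ± 0.03 and siRNA 6 gave 0.04 ± 0.03. ARF5 fell with SARNP (-0.20 and -0.35, each ± 0.06) and FIBP (-0.19 and -0.15, each ± 0.05). ARF3 fell with FIBP (-0.44 and -0.15, each ± 0.05), and its changes were -0.61 ± 0.05 with SARNP siRNA 9 and -0.54 ± 0.04 with SART1 siRNA 6, in each case with no call by the other siRNA. Of all 42-base words in their transcripts, 13.2% in ARF5 and 12% in ARF3 also occur in other genes, so reads could be shared. With DESeq2, FIBP siRNA 7 no longer called ARF3 (adjusted p = 0.0649) or ARF5 (adjusted p = 0.0822). Its ARF3 call was also lost without control replicate 1 (-0.12) or its replicate 2 (-0.12), and its ARF5 call without control replicate 2 (-0.12) or either library of its own (-0.15). For ARF5, FIBP siRNA 6 lost the call without control replicate 2 (-0.16) or its replicate 1 (-0.10), and SARNP siRNA 3 without control replicate 1 (-0.14). GBF1, the exchange factor for ARF, rose with SART1 (0.24 and 0.17, each ± 0.04) and SARNP (0.26 and 0.11, each ± 0.05), and DDX39A siRNA 4 gave 0.59 ± 0.05.

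TMED proteins form hetero-oligomers that link cargo to both coats. Of their 7 genes, 4 rose with SART1, where 22.9% of all tested genes did. TMED7 ranked next after SUCO, SEC24A and SEC24D by the smaller of its SART1 changes: its controls were at 2739 and 2679, siRNA 4 at 4775 and 5478, and siRNA 6 at 4752 and 4521 (0.92 ± 0.05 and 0.77 ± 0.05, adjusted p = 1.3e-13 and 2.3e-12). A share of 23.0% of its 42-base words lies also in the read-through gene TMED7-TICAM2. TMED2 (0.59 and 0.43, each ± 0.03), TMED9 (0.41 and 0.37, each ± 0.03) and TMED3 (0.41 and 0.30, each ± 0.04) rose too. TMED5 was called in opposite directions by the SART1 siRNAs, the only such gene with that target: controls at 4109 and 4078, siRNA 4 at 3327 and 3605, siRNA 6 at 5114 and 5198 (-0.24 ± 0.04 and 0.33 ± 0.04).

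TMED10 fell with SARNP and FIBP. With SARNP its controls were at 1446 and 1498, siRNA 3 at 819.2 and 830.2, and siRNA 9 at 923.9 and 984.0 (-0.83 ± 0.05 and -0.63 ± 0.05, adjusted p = 2.0e-15 and 2.0e-12). With FIBP its controls were at 1219 and 1159, siRNA 6 at 793.5 and 895.5, and siRNA 7 at 993.5 and 952.0 (-0.49 ± 0.06 and -0.29 ± 0.06). All knockdown libraries lay below the controls there, and TMEM259 siRNA 5 (-0.36 ± 0.06) and DDX39A siRNA 4 (-0.30 ± 0.05) also called it lower. SART1 siRNA 6 called it higher, at 0.36 ± 0.04.

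TMED3 rose with FIBP (0.30 and 0.40, each ± 0.05), and TMED5 with SARNP (0.19 and 0.24, each ± 0.05). TMED2 was called in opposite directions by the siRNAs of DDX39A (-0.18 and 0.28), FIBP (-0.14 and 0.19) and TMEM259 (0.17 and -0.16), TMED3 by those of DDX39A (-0.20 and 0.27) and TMED9 by those of DDX39A (-0.24 and 0.33). Calls lost without 1 library were those of TMED5 with SARNP siRNA 3 (its replicate 1, 0.13), of TMED3 with DDX39A siRNA 1 (control replicate 1, -0.13, or its replicate 2, -0.15), and of TMED2 with FIBP siRNA 6 (control replicate 2, -0.09, or its replicate 1, -0.12), TMEM259 siRNA 5 (control replicate 1, 0.12) and TMEM259 siRNA 6 (control replicate 2, -0.11, or its replicate 1, -0.12). TMED4 ranged from -0.26 to 0.16 over the 10 siRNAs.

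Among the cargo receptors, LMAN1 and MCFD2, whose complex carries coagulation factors, rose with SART1 (0.39 and 0.40 for LMAN1, 0.39 and 0.31 for MCFD2, each ± 0.04). SURF4, a receptor for soluble cargo, rose with SART1 (0.33 and 0.19), FIBP (0.10 and 0.15) and TMEM259 (0.11 and 0.21), each ± 0.03. MCFD2 rose most with DDX39A siRNA 4, at 2506 and 2588 against controls of 1608 and 1700 (0.62 ± 0.05), where siRNA 1 gave 0.14 ± 0.05. With FIBP it rose by 0.16 ± 0.05 and 0.58 ± 0.05. LMAN1 also rose with TMEM259 (0.11 and 0.23, each ± 0.03), but lay below the SARNP controls of 6134 and 6504 with siRNA 9, at 4153 and 4301, while siRNA 3 gave 7114 and 7096 (-0.58 ± 0.04 and 0.17 ± 0.04). LMAN2, which handles high-mannose glycoproteins, was called higher by SART1 siRNA 6 (0.36 ± 0.03) and not by siRNA 4 (0.07 ± 0.03). The siRNAs of DDX39A called LMAN1 (-0.27 and 0.13) and SURF4 (-0.17 and 0.19) in opposite directions. The MCFD2 call of DDX39A siRNA 1 was lost with DESeq2 (adjusted p = 0.109), with quantile normalization (0.12), and without control replicate 1 (0.10) or either library of its own (0.13 and 0.15), and that of FIBP siRNA 6 without control replicate 2 or its replicate 1 (0.13 each). LMAN1 lost the call of DDX39A siRNA 4 without control replicate 1 (0.09) or its replicate 1 (0.12), and that of SARNP siRNA 3 without control replicate 1 (0.13).

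KDEL receptors return escaped ER residents. KDELR2 stood at 8052 and 8253 in the SART1 controls, at 11910 and 12690 with siRNA 4 and at 11870 and 12110 with siRNA 6 (0.59 ± 0.03 and 0.56 ± 0.03, adjusted p = 8.3e-13 and 2.4e-12). It rose also with SARNP (0.28 and 0.22, each ± 0.04) and FIBP (0.17 and 0.53, each ± 0.04). KDELR1 rose with SART1 (0.49 and 0.33, each ± 0.04) and TMEM259 (0.18 and 0.21, each ± 0.05). KDELR3 rose with FIBP (0.37 and 0.60, each ± 0.05) and TMEM259 (0.52 and 0.21, each ± 0.05), and with SART1 it was at 0.76 ± 0.05 with siRNA 4 and 0.07 ± 0.05 with siRNA 6, a difference with an adjusted p of 2.6e-11. Without control replicate 1 the calls of KDELR2 with FIBP siRNA 6 (0.12) and of KDELR3 with TMEM259 siRNA 6 (0.18) were lost, the latter also without its replicate 2 (0.18). With DDX39A all 3 receptors were higher with siRNA 4 (0.43 ± 0.05, 0.67 ± 0.04 and 0.58 ± 0.06 for KDELR1, KDELR2 and KDELR3), and with siRNA 1 their changes were 0.01, -0.01 and -0.01.

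GOLGA2 (GM130), the cis-Golgi golgin, rose with every target. In the SART1 table its controls were at 3415 and 3434, siRNA 4 at 5434 and 5384, and siRNA 6 at 4216 and 3933 (0.66 ± 0.04 and 0.25 ± 0.04). In the table of DDX39A and SARNP the controls were at 1574 and 1590, the DDX39A siRNAs at 1795, 1746, 2203 and 2120, and the SARNP siRNAs at 2252, 2147, 1839 and 1801. In the table of FIBP and TMEM259 the controls were at 1588 and 1595, the FIBP siRNAs at 1840, 1755, 2238 and 2087, and the TMEM259 siRNAs at 2033, 2071, 2054 and 1991. No knockdown library overlapped its controls, and the changes outside SART1 ran from 0.16 ± 0.05 (DDX39A siRNA 1) to 0.47 ± 0.05 (SARNP siRNA 3). The lowest call was lost without control replicate 1 (0.15, adjusted p = 0.056) or without replicate 1 of DDX39A siRNA 1 (0.14, adjusted p = 0.0644), and that of FIBP siRNA 6 without its replicate 1 (0.14, adjusted p = 0.0951).

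GOLGB1 (giantin) rose with SART1, but its controls were wide apart at 2649 and 1649, with siRNA 4 at 3181 and 3462 and siRNA 6 at 3373 and 3524. The changes of 0.67 ± 0.11 and 0.72 ± 0.11 became 1.01 and 1.06 without control replicate 1 and 0.32 and 0.38 without control replicate 2, and with DESeq2 the adjusted p for siRNA 4 was 0.0534. GOLGA3 rose with SART1 (0.62 and 0.58, each ± 0.04), from 1940 and 1922 to 2967, 2962, 3033 and 2745, and DDX39A siRNA 4 called it at 0.60 ± 0.05. With SARNP siRNA 9, GOLGB1 was at 1002 and 1135 against controls of 1723 and 1749 (-0.70 ± 0.06), where siRNA 3 gave 0.06 ± 0.06. GOLGA5 (golgin-84), a tether within the stack, had the lowest change of all members: controls at 470.0 and 445.3, SARNP siRNA 9 at 193.8 and 203.3, SARNP siRNA 3 at 583.4 and 616.9 (-1.20 ± 0.08 and 0.39 ± 0.08). The tether USO1 (p115) and the phosphoinositide reader GOLPH3 ranged from -0.13 to 0.32 and from -0.04 to 0.20 over the 10 siRNAs.

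The direction of the SNAREs differed by target. BET1, an ER to Golgi SNARE, rose with SART1 (1515 and 1477 in controls, 2183 and 2429 with siRNA 4, 1812 and 1794 with siRNA 6; 0.62 ± 0.05 and 0.27 ± 0.05). With DDX39A it fell, from 736.2 and 748.6 to 547.3 and 561.5 with siRNA 1 and 414.6 and 414.8 with siRNA 4 (-0.42 ± 0.07 and -0.84 ± 0.07, adjusted p = 6.6e-06 and 6.1e-13). Against the same controls it fell with SARNP to 427.9 and 439.3 with siRNA 3 and 570.0 and 581.3 with siRNA 9 (-0.77 ± 0.07 and -0.37 ± 0.07). All 8 of these knockdown libraries lay below the 2 controls. FIBP siRNA 7 called BET1 higher (0.30 ± 0.06) and TMEM259 siRNA 6 lower (-0.35 ± 0.06).

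**Figure D4:**
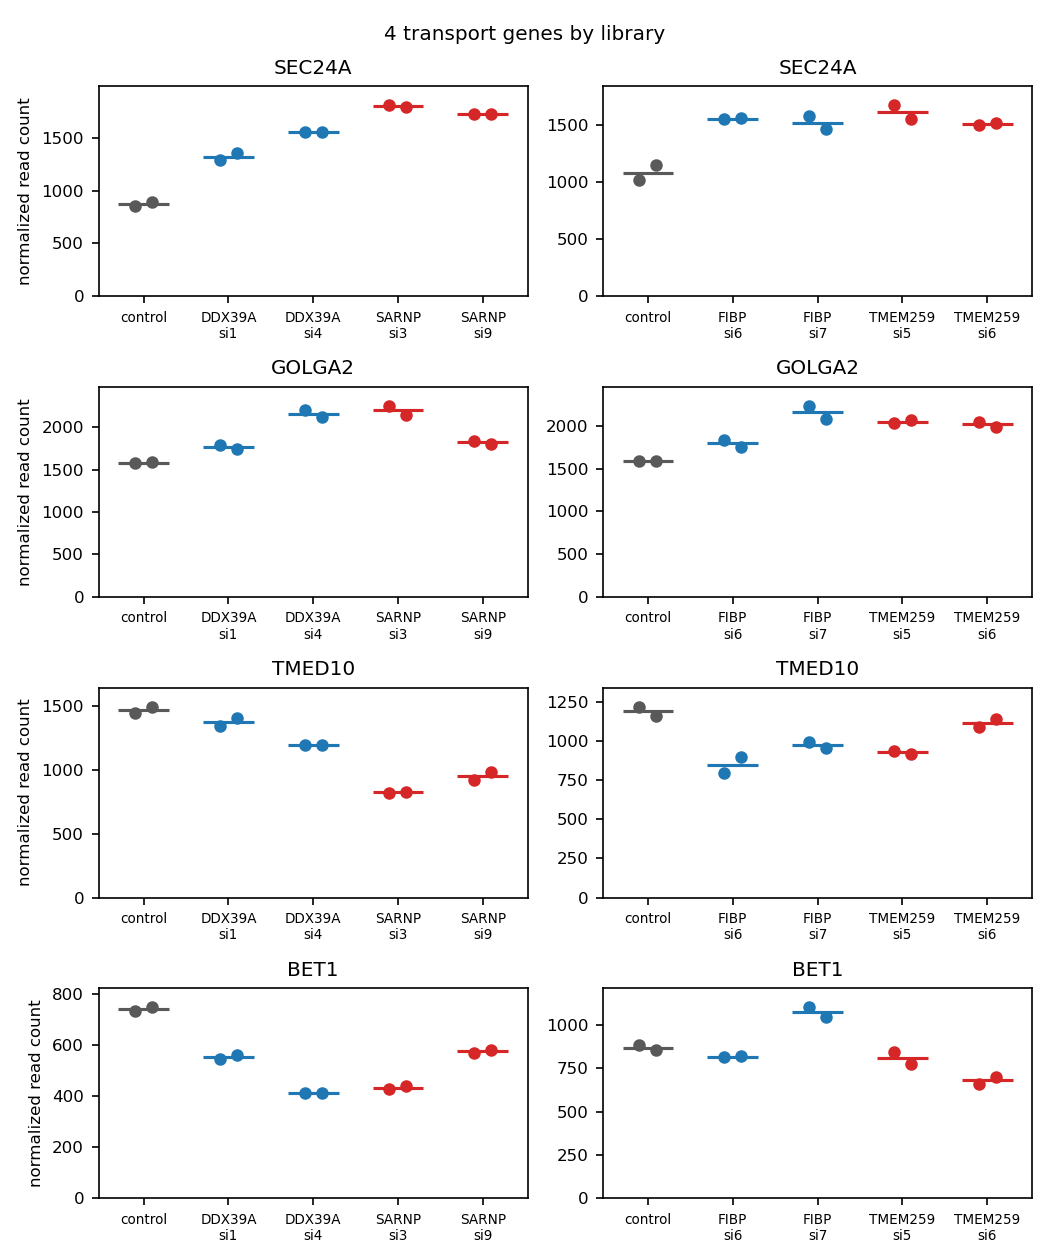
Normalized read counts of SEC24A, GOLGA2, TMED10 and BET1 in each library (points; lines are group means) of the table of DDX39A and SARNP (left) and of FIBP and TMEM259 (right). SEC24A and GOLGA2 are above the 2 controls in every knockdown library, TMED10 is lowest with the SARNP siRNAs on the left and with FIBP siRNA 6 on the right, and BET1 is below the controls in all 8 knockdown libraries on the left.

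SEC22B, the SNARE of ER and intermediate compartment, fell with DDX39A (1691 and 1730 in controls, 1345 and 1416 with siRNA 1, 1131 and 1135 with siRNA 4; -0.31 ± 0.05 and -0.59 ± 0.05). SARNP siRNA 3 gave 882.9 and 878.5 (-0.96 ± 0.05) and siRNA 9 gave 1769 and 1762 (0.05 ± 0.05), a difference between siRNAs with an adjusted p of 2.5e-19. The FIBP siRNAs called it at 0.25 and -0.27. A share of 9.83% of its 42-base words occurs in other genes. GOSR1 (0.40 and 0.42, each ± 0.05) and GOSR2 (0.33 and 0.13, each ± 0.04), Golgi SNAREs with similar names and roles, rose with SART1; in the remaining tables their changes ran from -0.15 to 0.26 and from -0.11 to 0.36. STX5, the Golgi syntaxin that pairs with BET1 and the GOSR proteins, was at -0.01 ± 0.06 and -0.43 ± 0.06 with SART1 and at 0.32 ± 0.08 and -0.49 ± 0.08 with SARNP.

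The siRNAs of a target often differed from each other. In the direct comparison of siRNA 9 with siRNA 3 of SARNP, 41 of the 52 genes were called, where 64.1% of all tested genes were. The counts were 43 for DDX39A (50.6% of all genes), 33 for SART1 (38.5%), 31 for FIBP (35.7%) and 26 for TMEM259 (32.1%). These shares also take in genes of lower level than the transport genes and were not matched for level. The siRNAs called 16 of the 52 genes in opposite directions with SARNP, where 13.0% of all tested genes were so called. The counts were 9 with DDX39A (5.16% of all genes), 4 with FIBP (2.50%), 2 with TMEM259 (2.17%) and 1 with SART1 (2.42%). With SARNP, 14 of the 16 were higher with siRNA 3 and lower with siRNA 9, among them KDELR3 (0.53 and -0.38), SURF4 (0.40 and -0.23), KDELR1 (0.25 and -0.24) and LMAN2 (0.16 and -0.13, lost with siRNA 9 without control replicate 1 or either of its libraries, at -0.10 to -0.13, and with siRNA 3 without its replicate 2, at 0.13), and the GTPases SAR1A and SAR1B went the other way. With DDX39A, all 9 such genes were lower with siRNA 1 and higher with siRNA 4. The directions of opposite calls were not counted over all tested genes, so these splits have no share to be set against. SARNP itself stood at 13.5% of control with siRNA 3 and 8.48% with siRNA 9; the part of that gap in these differences was not tested.

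**Figure D5:**
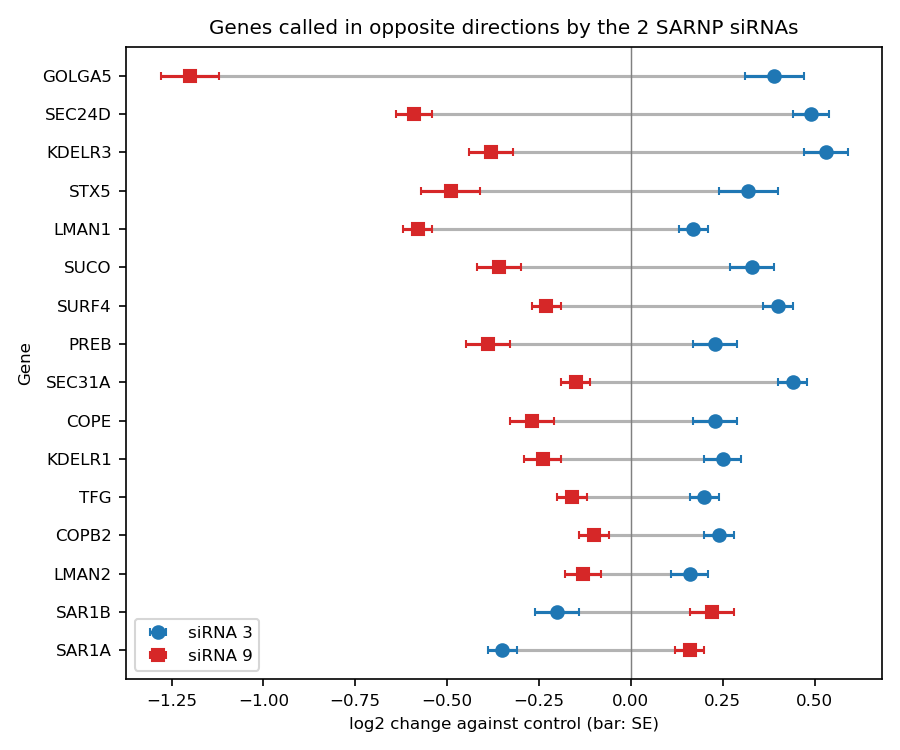
Log2 change against control (horizontal axis; bars are the SE) of the 16 transport genes that the SARNP siRNAs called in opposite directions, siRNA 3 as circles and siRNA 9 as squares. GOLGA5 shows the widest gap, from 0.39 to -1.20, and SAR1A and SAR1B are the 2 genes higher with siRNA 9.

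Between targets of 1 table, with both siRNAs averaged, SARNP and DDX39A differed for 41 of the 52 genes, 17 higher and 24 lower with SARNP, where 53.6% of all genes differed. TMEM259 and FIBP differed for 26, of which 10 were higher and 16 lower with TMEM259, where 37.1% of all genes did. Both counts take libraries, not siRNAs, as the unit, so they cannot separate targets from their single siRNAs.

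Other genes of the early secretory pathway, from a list of 52 measured genes outside the transport genes above, were counted in the same way. With SART1, 23 rose and 8 fell, where 22.9% and 20.0% of all genes did. YIPF5, a Golgi membrane protein (0.98 and 0.63, each ± 0.05), RAB2A, a GTPase of ER to Golgi traffic (0.75 and 0.56, each ± 0.04), and the SNARE BNIP1 (0.50 and 0.58, each ± 0.07) rose, and YIPF1 (-0.39 and -0.46, each ± 0.08), KLHL12, a ubiquitin ligase adaptor for SEC31 (-0.29 and -0.27, each ± 0.05), and the SNARE USE1 (-0.27 and -0.59, each ± 0.10) fell. The counts were 7 higher and 2 lower with DDX39A (8.67% and 6.37% of all genes), 6 and 3 with SARNP (7.17% and 7.15%), 6 and 1 with FIBP (4.68% and 4.39%) and 5 and 1 with TMEM259 (2.56% and 2.41%). NSF, the ATPase that recycles SNAREs, fell with DDX39A (-0.38 and -0.19, each ± 0.07) and FIBP (-0.17 and -0.26, each ± 0.06) and rose with SARNP (0.25 and 0.42, each ± 0.07).

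Of 17 further golgins and Golgi proteins, 12 rose with SART1 (22.9% of all genes), 4 with FIBP (4.68%), 3 with SARNP (7.17%), 2 with DDX39A (8.67%) and 1 with TMEM259 (2.56%). By limma 0 of them fell with any target, also at an unadjusted p below 0.05, with edgeR and with DESeq2. Over all genes, 20.0% fell with SART1, 6.37% with DDX39A, 7.15% with SARNP, 4.39% with FIBP and 2.41% with TMEM259. For the targets other than SART1, 0 of 17 lies near those shares. ACBD3, a Golgi scaffold that binds giantin, was the only one that rose with every target: 1.14 and 0.97 (each ± 0.04) with SART1, 0.31 and 0.44 (each ± 0.06) with DDX39A, 0.52 and 0.35 (each ± 0.06) with SARNP, 0.28 and 0.45 (each ± 0.05) with FIBP, and 0.45 and 0.23 (each ± 0.05) with TMEM259. GOLIM4, a Golgi membrane protein, rose with SART1 (0.65 and 0.57, each ± 0.04), DDX39A (0.32 and 0.53, each ± 0.05) and SARNP (0.36 and 0.31, each ± 0.05). Of 22 subunits of the tethering complexes COG and TRAPP, 5 rose and 3 fell with SART1, where 22.9% and 20.0% of all genes did, so the number that rose was close to that share. With DDX39A 3 rose (8.67% of all genes) and with SARNP 3 rose (7.17%). By limma 0 fell with either, where 6.37% and 7.15% of all genes did. That count was also 0 at an unadjusted p below 0.05, with edgeR and with DESeq2. With FIBP and with TMEM259, 0 rose and 0 fell by limma, edgeR or DESeq2. Over all genes 4.68% rose and 4.39% fell with FIBP, and 2.56% and 2.41% with TMEM259, so 0 of 22 lies near those shares. At an unadjusted p below 0.05, 1 rose and 0 fell with FIBP, and 1 rose and 1 fell with TMEM259. COG3 rose with SART1 (0.58 and 0.59, each ± 0.06) and SARNP (0.31 and 0.51, each ± 0.07), and TRAPPC12 fell with SART1 (-0.17 and -0.51, each ± 0.06) and rose with SARNP (0.30 and 0.28, each ± 0.07).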

How the data were processed

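Poly(A) RNA of 26 libraries in 13 groups of 2 was read as paired ends of 42 bases, per the labels' protocols. The submitters' processing notes name hg19, STAR, Picard, HTSeq and DESeq2; versions, annotation and the strand counted are not given in the sources used here. The deposited values are a normalized signal per gene symbol, which the authors made by a scaling that leaves 100% of a library's gene values as whole numbers of reads times 1 factor (within 0.0001 of a read); the reads recovered in this way served only for depth, edgeR and DESeq2. Entries without a gene were kept apart. Those marked as no feature made up 5.79% to 9.02% of the sum of gene, no-feature and ambiguous entries. The 3 tables were normalized separately and never merged.

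Genes with a mean of at least 10 were tested (11823 for SART1, 11673 for DDX39A and SARNP, 11768 for FIBP and TMEM259) with limma 3.58.1 in R 4.3.3 on log2(value + 1), a mean per group and all groups of a table in 1 fit (residual degrees of freedom 3, 5 and 5, prior degrees 20.5, 31.8 and 38.4), and two-sided p-values were adjusted by Benjamini-Hochberg. The script was tested on simulated data.

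Members, lists and tests were chosen with earlier results of these data known. Genes were named by rule: up to 8 per direction and target called by both siRNAs, those called in opposite directions, those called at an absolute log2 change of at least 0.58 with any siRNA, paralogs, and up to 3 per direction of each wider list; the text gives a selection of the wider lists. TRAPPC12 and NSF across targets were followed after their values were seen. Alternatives were a pseudocount of 5, no filter or a mean of 50, edgeR 4.0.16 (TMM) and DESeq2 1.42.0, quantile normalization, the compared groups alone, a replicate block and each library left out. Words of 42 bases shared between genes come from GENCODE transcripts. Motifs were searched in the 250 bases upstream of RefSeq starts (GRCh38.p14).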

Additional observations from a re-analysis of the deposited data

Results flagged for a closer look

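The average changes of some transport genes differed between targets of 1 table. The test was limma's, of the difference itself, with both siRNAs of a target averaged and adjustment over all genes. Its SE and p-value reflect how libraries scatter inside each siRNA group, and disagreement of 2 siRNAs does not enter them. They thus describe these particular siRNAs and do not test whether the targets differ. Among the 52 genes, the siRNAs themselves differed for 41 with SARNP, 43 with DDX39A, 31 with FIBP and 26 with TMEM259. SARNP minus DDX39A was 0.31 ± 0.04 (log2, SE; adjusted p = 2.4e-08) for SEC23B, 0.30 ± 0.04 (7.8e-09) for SEC24A, 0.27 ± 0.04 (2.5e-07) for MIA3 and 0.27 ± 0.03 (4.7e-09) for TMED5. In the other direction it was -0.67 ± 0.05 (1.8e-13) for GOLGA5, -0.55 ± 0.04 (1.3e-13) for GOLGB1, -0.53 ± 0.04 (1.5e-14) for TMED10 and -0.52 ± 0.03 (1.4e-15) for SEC24D. The averages for GOLGA5, GOLGB1 and SEC24D join SARNP siRNAs that differ from each other: siRNA 3 gave 0.39, 0.06 and 0.49, and siRNA 9 gave -1.20, -0.70 and -0.59. That for MIA3 joins DDX39A siRNAs that called it in opposite directions. Its means were 1058 with DDX39A siRNA 1 and 1356 with siRNA 4, against 1451 and 1440 with SARNP siRNAs 3 and 9.

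TMEM259 minus FIBP was 0.47 ± 0.03 (adjusted p = 7.7e-16) for SAR1A, 0.33 ± 0.04 (2.6e-10) for ARF3, 0.24 ± 0.06 (0.00229) for COPG2 and 0.21 ± 0.03 (5.4e-07) for ARCN1. It was -0.33 ± 0.04 (3.2e-08) for BET1, -0.30 ± 0.04 (1.4e-08) for MIA3, -0.29 ± 0.03 (1.5e-11) for KDELR2 and -0.25 ± 0.03 (6.4e-08) for MCFD2. The averages for BET1, KDELR2 and MCFD2 join siRNAs with unlike values. Their means were 816.3, 5522 and 1618 with FIBP siRNA 6, and 1071, 7088 and 2163 with FIBP siRNA 7. With TMEM259 siRNA 5 they were 809.8, 5682 and 1644, and with TMEM259 siRNA 6 they were 681.2, 4588 and 1496. For MIA3 both FIBP means (1546 and 1370) lay above both TMEM259 means (1256 and 1110). For ARCN1 the FIBP means were unlike, at 2777 (siRNA 6) and 3308 (siRNA 7), and the TMEM259 means were 3380 (siRNA 5) and 3614 (siRNA 6). SAR1A fell with both FIBP siRNAs, at 1700 normalized reads on average against 2360 with TMEM259.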

How the results depend on the processing

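With DESeq2, 2 transport genes in place of 4 fell with FIBP, and with quantile normalization 2 in place of 1 fell with SART1; other counts over alternatives that kept all libraries were within 1.5 times the main one. Leaving out 1 library gave 4 to 7 genes higher and 2 to 2 lower with DDX39A, 8 to 15 and 2 to 4 with FIBP, 10 to 12 and 2 to 3 with SARNP, 34 to 36 and 1 to 1 with SART1, and 6 to 13 and 0 to 0 with TMEM259 (main count of lower genes 0). The difference of SARNP and DDX39A then held 35 to 41 genes, and that of TMEM259 and FIBP 20 to 25. A fit with 1 library in a group assumes that it varies like the other groups. Single calls were followed for 185 values of 45 transport genes: those ranked per target, called in opposite directions or at an absolute log2 change of at least 0.58. Of their 2559 values under an alternative, 2478 kept direction and call, 81 kept the direction and lost the call, and 0 reversed. Calls of other genes in the text, wider lists included, were not followed singly, so no stated loss there does not mean that the call held. With the replicate block, 36, 7, 11, 15 and 12 genes rose with SART1, DDX39A, SARNP, FIBP and TMEM259. Of the 185 values followed, only COPB2 with SARNP siRNA 9 lost its call under the block (limma, -0.10, adjusted p = 0.0501). The lower counts with FIBP and TMEM259 therefore include lost calls outside those values. Replicate numbers are not stated to pair libraries, and deviations of same-numbered libraries correlated at -0.117 to 0.09 over 23 pairs of groups, so the block is only an alternative. No scaling moved the median of all genes by more than 0.02. With 2 libraries a group, changes near 0.1 are at the edge of what was called.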

Other observations

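Of 33 genes for sorting beyond the Golgi, 12 rose and 6 fell with SART1, where 22.9% and 20.0% of all tested genes did. The exocyst subunits EXOC8 (0.44 ± 0.07 and 0.41 ± 0.07, log2 change ± SE with siRNAs 4 and 6) and EXOC4 (0.34 and 0.37, each ± 0.04) rose, while EXOC7 (-0.60 and -0.73, each ± 0.04), EXOC6 (-0.56 and -0.38, each ± 0.10) and EXOC3 (-0.36 and -0.39, each ± 0.05) of the same complex fell. With FIBP, 0 rose and 4 fell (4.68% and 4.39% of all genes), and with SARNP 3 rose and 2 fell (7.17% and 7.15%). With DDX39A, 2 rose and 2 fell (8.67% and 6.37%), and with TMEM259 1 rose and 2 fell (2.56% and 2.41%). The FIBP count of 0 by limma was also 0 with edgeR and DESeq2, and 2 at an unadjusted limma p below 0.05. VPS35, the core of retromer, fell with FIBP (-0.46 and -0.19, each ± 0.04) and SARNP (-0.31 and -0.19, each ± 0.04). AP3M1, of the AP-3 adaptor, fell with DDX39A (-0.34 and -0.76, each ± 0.05) and SARNP (-0.47 and -0.32, each ± 0.05).

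Of 14 regulators of secretory capacity, 6 rose and 1 fell with SART1, beside the same shares of 22.9% and 20.0% over all genes. A further 3 were called higher and 2 lower by 1 SART1 siRNA alone, and 2 by neither. The SART1 changes of the list ran from -0.87 to 0.81. The ER stress sensors EIF2AK3 (0.76 and 0.72, each ± 0.06) and ERN1 (0.52 and 0.75, each ± 0.16) and the transcription factor XBP1 (0.81 and 0.50, each ± 0.04) rose, and TFE3, a factor of lysosome and Golgi genes, fell (-0.19 and -0.23, each ± 0.04). Of the 13 tested with DDX39A, 4 rose and 0 fell (8.67% and 6.37% of all genes). Of 13 with SARNP, 0 rose and 2 fell (7.17% and 7.15%). With FIBP 2 rose and 1 fell (4.68% and 4.39%), and with TMEM259 2 rose and 0 fell (2.56% and 2.41%). These counts of 0 by limma were also 0 with edgeR and DESeq2. At an unadjusted limma p below 0.05, 1 rose with SARNP. EIF2AK3 rose also with DDX39A (0.43 and 0.67, each ± 0.07) and TMEM259 (0.43 and 0.23, each ± 0.07). CREB3L1 fell with SARNP (-0.77 ± 0.21 and -1.06 ± 0.21), as did TFE3 (-0.36 and -0.15, each ± 0.05). Spliced forms of XBP1 and the cleavage of ATF6 were not analysed here.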
